A study of Homo sapiens with 6 samples.

Results

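The pro-apoptotic arm of the BCL-2 family was followed in LNCaP, a human prostate cancer line, through 10 genes chosen by name from the 29744 genes of the expression table. Effector genes among them were *BAX*, *BAK1* (BAK) and *BOK*, and BH3-only genes were *BIK*, *BMF*, *BID*, *BAD*, *BCL2L11* (BIM), *PMAIP1* (NOXA) and *BBC3* (PUMA). All 10 were listed and all 10 passed the filter on low values. LNCaP cells were grown in RPMI-1640 with 10% FBS and exposed for 4 h either to 250 nM CDKI-73, a small molecule inhibitor of CDK9 (3 biological replicates), or to DMSO as vehicle (3 biological replicates). Titles of the DMSO samples also carry the compound's name, and their treatment label was used to place them as vehicle. The line is a single genetic background, and 1 dose and 1 time were sampled. Single-end, strand-aware libraries were made from polyA+ RNA, and levels are given as CPM, the reads counted for a gene scaled to a library total of 1000000.

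The BCL-2 family decides whether the outer mitochondrial membrane stays intact. Anti-apoptotic members such as MCL-1, BCL-2 and BCL-xL hold the effectors BAX and BAK in check, and BH3-only proteins sense stress and either occupy the anti-apoptotic members or activate the effectors directly, after which cytochrome c is released and caspases are activated. CDK9, the catalytic subunit of P-TEFb, lets RNA polymerase II leave its pause near the promoter, and mRNAs with a short life are the first to fall when it is inhibited.

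The genes lie on 7 chromosomes of GRCh38 (hg38), with positions from the RefSeq annotation. *BCL2L11* is on chromosome 2 from 111120914 to 111168445 on the plus strand and *BOK*, also on the plus strand, on chromosome 2 from 241551393 to 241574131. *BAK1* (chromosome 6, 33572552 to 33580276), *BAD* (chromosome 11, 64269828 to 64284704), *BMF* (chromosome 15, 40087890 to 40108879) and *BBC3* (chromosome 19, 47220824 to 47232860) are on the minus strand, as is *BID* (chromosome 22, 17734138 to 17774665). *PMAIP1* (chromosome 18, 59899996 to 59904305), *BAX* (chromosome 19, 48954875 to 48961798) and *BIK* (chromosome 22, 43110750 to 43129712) are on the plus strand. The 250 bases before the transcription start are shown for *BCL2L11*, *BMF* and *PMAIP1*, which fell, and for *BAX*, which did not, as read from RefSeq promoter windows of GRCh38.p14, 5′ to 3′ on the strand of the gene. Capitals mark matches on either strand to GTAAACA (the FOXO motif), GGGCGG (the GC box), CACGTG (the E-box) and CCAAT. The windows are chr2:111120664-111120913 for *BCL2L11*, chr15:40108880-40109129 for *BMF*, chr18:59899746-59899995 for *PMAIP1* and chr19:48954625-48954874 for *BAX*.
BCL2L11: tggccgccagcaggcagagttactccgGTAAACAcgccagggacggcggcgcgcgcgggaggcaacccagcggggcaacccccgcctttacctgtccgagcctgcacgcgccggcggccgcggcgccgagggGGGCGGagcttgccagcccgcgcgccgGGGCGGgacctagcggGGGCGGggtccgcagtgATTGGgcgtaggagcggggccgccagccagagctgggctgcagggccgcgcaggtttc
BMF: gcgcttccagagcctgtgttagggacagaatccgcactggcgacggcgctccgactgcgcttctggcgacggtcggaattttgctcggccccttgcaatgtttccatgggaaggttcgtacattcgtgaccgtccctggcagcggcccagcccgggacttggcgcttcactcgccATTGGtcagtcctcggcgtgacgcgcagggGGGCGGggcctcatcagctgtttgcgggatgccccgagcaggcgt
PMAIP1: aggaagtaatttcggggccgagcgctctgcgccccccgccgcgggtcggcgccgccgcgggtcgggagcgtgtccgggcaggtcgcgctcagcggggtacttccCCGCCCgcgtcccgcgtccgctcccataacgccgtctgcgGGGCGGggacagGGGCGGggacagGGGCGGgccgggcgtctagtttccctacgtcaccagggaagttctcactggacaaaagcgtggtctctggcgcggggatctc
BAX: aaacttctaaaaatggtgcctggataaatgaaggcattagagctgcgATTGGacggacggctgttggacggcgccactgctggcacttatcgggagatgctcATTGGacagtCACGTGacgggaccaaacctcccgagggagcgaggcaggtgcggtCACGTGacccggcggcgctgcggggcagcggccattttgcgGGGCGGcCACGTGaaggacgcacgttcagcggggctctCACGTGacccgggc

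Of the 10 genes, 9 had a window (15 windows in all), and *BIK* had none. The window of *BCL2L11* was the only member window with GTAAACA, at position −223 from the start, and 2.15% of the 13848 windows of tested genes held that motif. GGGCGG occurred in 1 or more windows of 8 of these 9 genes, with at most 4 matches in a window (*PMAIP1* and *BID*) and none in that of *BBC3*. It was in 63.1% of the windows of tested genes. *BID* had 5 windows and *BAD* and *BMF* 2 each, so a count of genes is not the same measure as that share. The second window of *BMF*, not shown, held none of the motifs. CACGTG occurred 4 times before *BAX*, and also in windows of *BBC3* and *BID*. CCAAT occurred in windows of *BCL2L11*, *BOK*, *BAK1*, *BAD*, *BMF*, *BBC3* and *BAX*, and not in those of *PMAIP1* or *BID*. Of the windows of tested genes, CACGTG was in 8.38% and CCAAT in 33.3%. No member window held TATAAA or TGACGTCA, a CRE motif, and 5.73% and 2.49% of windows of tested genes held them. A match of letters is a description of the window and not evidence of binding.

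The libraries held 46084314 to 60923633 counted reads, inferred from the step between values, so the lowest member value rested on about 72 reads. All 9 LNCaP and prostate luminal markers, among them *KLK3* and *KRT8*, had a mean of at least 204.8 CPM, and 13 of 18 markers of other cells (stromal, endothelial, immune, basal) had a mean under 0.5 CPM, with *COL1A2* and *CD3E* at 0 in every sample. The other 5 were present, *COL1A1* at 9.40 to 14.89, *VWF* at 10.00 to 11.89, *CD68* at 4.81 to 7.22, *ACTA2* at 2.06 to 4.25 and *KRT14* at 0.51 to 1.31 CPM. Of these, *COL1A1*, *ACTA2* and *CD68* were called higher with CDKI-73 (log2 fold changes of 0.47, 0.79 and 0.38), and *VWF* and *KRT14* were not called. The summed level of those 18 markers was 27.6 to 29.3 CPM with DMSO and 34.4 to 38.2 CPM with CDKI-73, and its part in the results was not tested. Transcripts rich in G and C were higher in CDKI-73 replicate 3 (Pearson's r between a gene's deviation from its group mean and its transcript GC content of 0.32, across 11590 genes that are not independent replicates) and in DMSO replicate 1 (0.23) than in the other libraries of their groups (−0.34 to 0.03). The transcripts of *BBC3*, *BOK*, *BAD* and *BAX* have a GC content of 69.7%, 66.0%, 65.8% and 60.8%, where the median of tested genes is 48.1%.

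The test was limma on log2(CPM + 0.1) over all 13373 genes with a mean of at least 0.5 CPM, adjusted by the Benjamini-Hochberg method, and fold changes on that scale understate changes of low genes. A gene was called where its adjusted p was 0.05 or less. Of the 10 genes, 6 were called lower and 2 higher with CDKI-73, and 2 were not called. By that rule 72.4% of all tested genes were called, 48.2% as lower and 24.2% as higher. At least 2-fold lower were 5 of the 10 genes and 22.3% of tested genes, at least 4-fold lower 3 of the 10 and 8.12%, and at least 8-fold lower 2 of the 10 and 2.53%. No member and 1.11% of tested genes were at least 2-fold higher. The median log2 fold change was −0.79 over the 10 genes and −0.18 over all tested genes. Samples of both groups lay apart without overlap for 8 of the 10 genes and 75.9% of tested genes. The numbers of members called and of members without overlap were thus near the background. P values set the difference between groups against the spread of replicates within groups, 3 in each. Limma draws that variance towards a trend with level over all tested genes. In bulk RNA, fewer cells carrying a transcript and less of it per cell cannot be told apart.

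**Figure D1:**
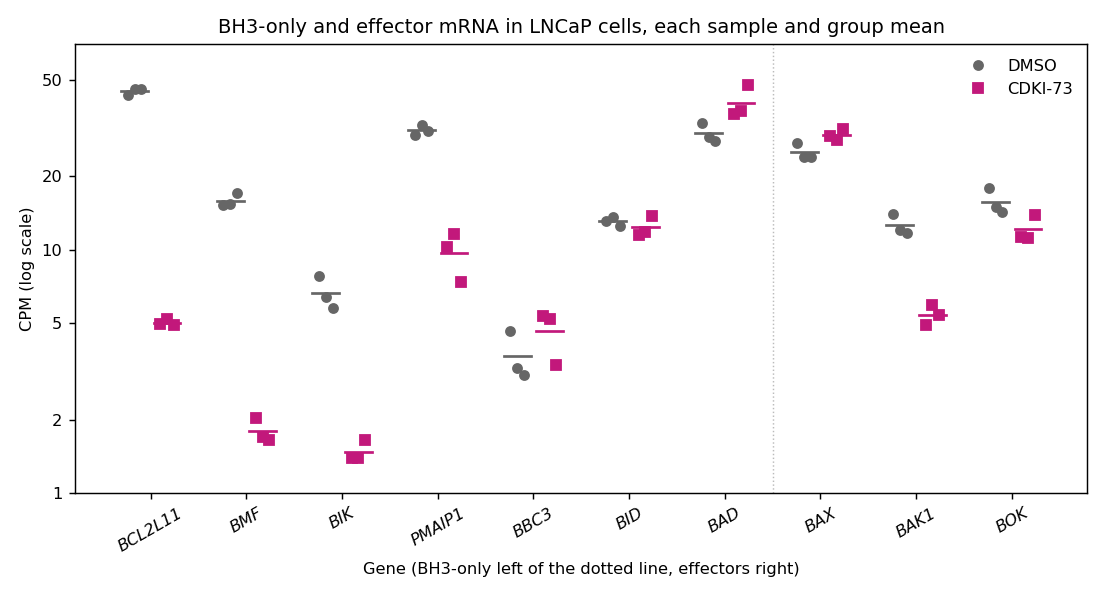
CPM on a log scale of the 10 genes in each sample, DMSO in grey circles and CDKI-73 in magenta squares, with group means as bars. *BCL2L11* and *BMF* have 8.95-fold and 8.84-fold lower mean CPM with CDKI-73, while the samples of *BBC3* and *BID* overlap between groups.

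The BH3-only genes that fell were *BCL2L11*, *BMF*, *BIK* and *PMAIP1*. *BCL2L11* encodes BIM, which binds all anti-apoptotic members and activates BAX and BAK. Its level was 43.1, 45.5 and 45.9 CPM in the DMSO samples and 4.93, 5.20 and 4.90 CPM in the CDKI-73 samples. The groups were far apart and the replicates close within each. The log2 fold change was −3.14 ± 0.061 (SE, limma, adjusted p = 2.0e-08), and 285 of the 13373 tested genes (2.13%) fell further. The mean with CDKI-73 was 11.2% of that with DMSO.

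*BMF* encodes a BH3-only protein that is held at the actin-based motor complex by dynein light chain. It was measured at 15.27, 15.34 and 17.04 CPM with DMSO and at 2.04, 1.70 and 1.65 CPM with CDKI-73. No sample of a group came near the other group, and the fold change lay beside that of *BCL2L11*, with overlapping 95% intervals (−3.32 to −2.84 for *BMF* and −3.28 to −2.997 for *BCL2L11*). Its log2 fold change was −3.08 ± 0.10 (SE, limma, adjusted p = 7.6e-08).

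*BIK*, whose product sits mainly at the endoplasmic reticulum, had 7.76, 6.37 and 5.75 CPM with DMSO and 1.39, 1.39 and 1.65 CPM with CDKI-73. DMSO replicate 1 was the highest and the groups did not overlap. For *BIK* the log2 fold change was −2.09 ± 0.13 (SE, limma, adjusted p = 2.0e-06). The lowest of these values corresponds to about 72 reads, with a counting error of 11.8% (1 SD).

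*PMAIP1* encodes NOXA, a BH3-only protein that binds MCL-1 and promotes its degradation. It stood at 29.7, 32.7 and 30.8 CPM with DMSO and at 10.2, 11.6 and 7.38 CPM with CDKI-73. The treated replicates were more spread than the vehicle replicates, replicate 3 being the lowest, and the groups did not overlap. A log2 fold change of −1.69 ± 0.15 (SE, limma, adjusted p = 1.5e-05) was the smallest fall of these 4 genes.

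*BBC3*, *BID* and *BAD* were the BH3-only genes that did not fall past the test. *BBC3* encodes PUMA, which binds every anti-apoptotic member. Its level was 4.63, 3.25 and 3.06 CPM with DMSO and 5.33, 5.20 and 3.36 CPM with CDKI-73. The groups overlapped through DMSO replicate 1 and CDKI-73 replicate 3, the libraries that deviated most towards high GC content in their groups. GC-rich transcripts ran higher in both, whereas *BBC3* was the highest of its group in DMSO replicate 1 and the lowest in CDKI-73 replicate 3. Its log2 fold change was 0.33 ± 0.21 (SE, limma, adjusted p = 0.19, 95% interval −0.16 to 0.82), which does not show that it was unaltered. Without CDKI-73 replicate 3 it was 0.54 (adjusted p = 0.0065 from limma). Without that library and DMSO replicate 1 it was 0.72 (adjusted p = 2.7e-05 from limma). With adjustment for transcript GC content it was 0.024 (adjusted p = 0.93 from limma). The omission of both libraries and the GC adjustment were chosen after the data were seen.

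*BID*, which is activated by caspase-8 cleavage and links death receptors to mitochondria, had 13.1, 13.6 and 12.5 CPM with DMSO and 11.5, 11.8 and 13.7 CPM with CDKI-73. CDKI-73 replicate 3 exceeded all DMSO samples, and the other treated samples lay below them. *BID* had a log2 fold change of −0.085 ± 0.083 (SE, limma, adjusted p = 0.38, 95% interval −0.28 to 0.11), and −0.16 without CDKI-73 replicate 3 (adjusted p = 0.045 from limma).

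*BAD*, whose product is kept inactive by phosphorylation and 14-3-3 binding, had 33.2, 29.1 and 28.0 CPM with DMSO and 36.0, 37.1 and 47.6 CPM with CDKI-73. CDKI-73 replicate 3 stood above the other treated samples, and the groups did not overlap. *BAD* thus had a log2 fold change of 0.41 ± 0.11 (SE, limma, adjusted p = 0.011). Exons of *BAD* overlap those of *GPR137* on the opposite strand over 404 bases, and *GPR137*, at a mean of 31.5 CPM over the 6 samples, was higher too (0.49, adjusted p = 0.0022 from limma). The strand column that was counted is not given in the sources used here, so how reads over that stretch were assigned or dropped is not known. The same limit holds for *BCL2L11*, with 727 exonic bases opposite *MIR4435-2HG*, and for *BMF*, with 461 opposite *BMF-AS1*, neither of which is listed under that name. It also holds for *BOK*, with 201 opposite *BOK-AS1*, which had a mean of 0.088 CPM.

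The effector genes went different ways. *BAX*, which moves from the cytosol to mitochondria to form pores, had 27.5, 24.1 and 24.1 CPM with DMSO and 29.3, 28.2 and 31.4 CPM with CDKI-73. The groups were separated by less than 1 CPM, between DMSO replicate 1 and CDKI-73 replicate 2. Its log2 fold change was 0.23 ± 0.072 (SE, limma, adjusted p = 0.019), and 0.20 with adjusted p = 0.078 from limma without DMSO replicate 2 and 0.072 without DMSO replicate 3. After adjustment for transcript GC content, an alternative chosen after the data were seen, the log2 fold change of *BAX* was 0.036 (adjusted p = 0.58 from limma) and that of *BAD* 0.11 (adjusted p = 0.13 from limma).

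*BAK1* encodes BAK, the effector that resides in the mitochondrial outer membrane. Its level was 14.02, 12.10 and 11.71 CPM with DMSO and 4.91, 5.92 and 5.40 CPM with CDKI-73. Every treated sample lay well below every vehicle sample. For *BAK1* the log2 fold change was −1.21 ± 0.10 (SE, limma, adjusted p = 1.1e-05), and it became smaller than 2-fold after scaling to the upper quartile (−0.93) or by the trimmed mean of M values (−0.98). The pseudogenes *BAK1P1* and *BAK1P2* could share reads with it.

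*BOK*, a BAX-like effector that acts without control by the anti-apoptotic members, had 17.94, 14.96 and 14.30 CPM with DMSO and 11.3, 11.2 and 13.9 CPM with CDKI-73. The highest treated and the lowest vehicle samples were close, with no overlap. The log2 fold change of −0.37 ± 0.11 (SE, limma, adjusted p = 0.018) no longer passed without DMSO replicate 1 (−0.28, adjusted p = 0.061 from limma), CDKI-73 replicate 1 (−0.33, adjusted p = 0.061 from limma) or CDKI-73 replicate 2 (−0.32, adjusted p = 0.060 from limma). In all, 6 of the 19 alternatives run removed the call. It was −0.47 without CDKI-73 replicate 3 (adjusted p = 0.00047 from limma) and −0.68 after the GC adjustment (adjusted p = 2.8e-05 from limma).

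**Figure D2:**
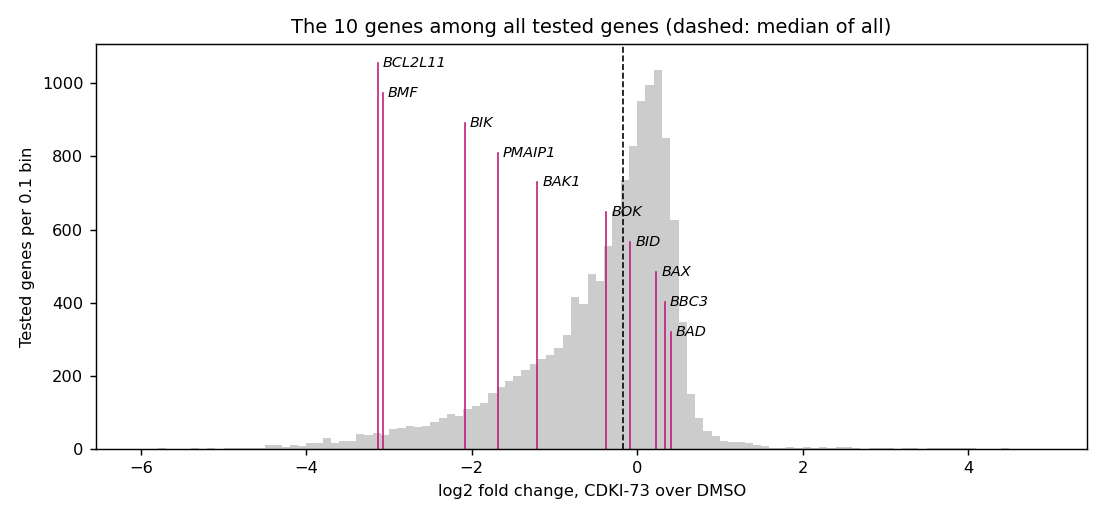
Histogram of log2 fold changes, CDKI-73 over DMSO, of the 13373 tested genes in bins of 0.1, with magenta lines at the 10 genes and a dashed line at the median of all genes (−0.18). The heights of the magenta lines only separate the names. *BCL2L11* and *BMF* lie in the lower tail, and *BAD*, *BBC3* and *BAX* on the right of the median.

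CPM are shares of a library, so another scaling moves all genes together. At the median gene the shift was 0.20 for the median of gene ratios, 0.23 for the trimmed mean of M values, 0.27 for the upper quartile and −0.41 for the reference genes *GAPDH*, *HPRT1* and *ACTB*, which were themselves higher in CPM (median log2 fold change 0.36). *BCL2L11*, *BMF*, *BIK*, *PMAIP1* and *BAK1* were lower under each of the 19 alternatives run, with log2 fold changes of −3.54 to −2.86, −3.47 to −2.59, −2.48 to −1.62, −2.09 to −1.41 and −1.61 to −0.93. The changes of the other 5 genes were smaller, and for each of them at least 1 scaling altered the call. *BBC3* passed as higher after scaling to the upper quartile (0.60, adjusted p = 0.029 from limma). It also passed with the median of gene ratios (0.53, adjusted p = 0.045 from limma) and the trimmed mean of M values (0.56, adjusted p = 0.038 from limma). After scaling to the reference genes *BBC3* had −0.067 (adjusted p = 0.79 from limma). *BAX* was lower with the reference genes (−0.18, adjusted p = 0.036 from limma), and *BID* then fell too (−0.49, adjusted p = 0.00040 from limma).

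**Figure D3:**
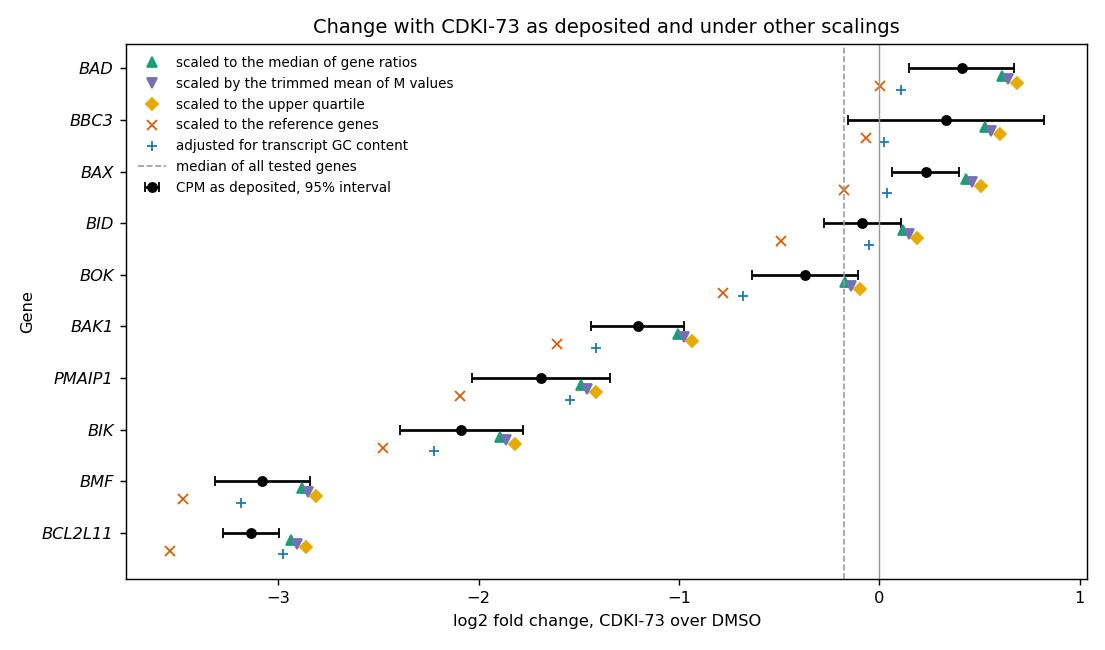
Log2 fold change of each gene, CDKI-73 over DMSO, from CPM as deposited (black points with 95% intervals from limma) and under 4 other scalings and an adjustment for transcript GC content (coloured marks). A dashed line marks the median over tested genes (−0.18), and the marks of *BID*, *BAX* and *BBC3* fall on both sides of 0.

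Levels of different genes were compared per kilobase of the canonical GENCODE v44 transcript. With DMSO *BAD* and *BAX* were the highest of the 10 genes, at 32.4 ± 2.99 and 31.7 ± 2.47 CPM per kilobase (SD, n = 3), and their samples overlapped. *PMAIP1* followed at 16.4 ± 0.79 and *BCL2L11* at 8.80 ± 0.29 CPM per kilobase. *BIK* (6.97 ± 1.08), *BID* (6.001 ± 0.26), *BOK* (5.99 ± 0.74) and *BAK1* (5.81 ± 0.57) formed a run in which each overlapped its neighbour. *BMF* (3.39 ± 0.21) and *BBC3* (1.98 ± 0.46) were the lowest. With CDKI-73 *BAD* (43.3 ± 6.90) and *BAX* (37.2 ± 2.05) again came first and overlapped, and *BID* (5.67 ± 0.55), *PMAIP1* (5.13 ± 1.13) and *BOK* (4.62 ± 0.58) came next, each overlapping its neighbour. *BBC3* (2.51 ± 0.60) and *BAK1* (2.49 ± 0.23) overlapped, and *BIK* (1.55 ± 0.16), *BCL2L11* (0.983 ± 0.032) and *BMF* (0.383 ± 0.045) were the lowest. *BCL2L11* thus went from rank 4 to rank 9 of the 10, and *BBC3* from rank 10 to rank 6. These are levels of mRNA, and isoforms such as those of BIM are not separated in a value per gene.

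The anti-apoptotic genes that BH3-only proteins oppose also fell. Of 6 such genes 4 passed the filter, and all 4 were called lower (3 by the trimmed mean of M values, the upper quartile or the median ratio), *MCL1* and *BCL2* by at least 2-fold. *MCL1* had 313.6 to 331.5 CPM with DMSO and 55.4, 61.2 and 29.4 CPM with CDKI-73. *BCL2*, at 5.26 to 5.71 CPM, went to 1.10 to 1.99 CPM, and *BCL2L1* (BCL-xL) from 91.3 to 92.8 CPM to 47.8 to 50.4 CPM. *BCL2L2* (BCL-w) had the smallest log2 fold change of the 4, −0.20. *BCL2A1* and *BCL2L10* did not pass the filter, with means of at most 0.0433 and 0.0633 CPM in either group.

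The ratio of a BH3-only to an anti-apoptotic mRNA within a library moves with scaling only through the 0.1 CPM added to both values. Of 23 ratios formed, 21 were of the 7 BH3-only genes over *MCL1*, *BCL2* and *BCL2L1*. With 3 samples against 3, the exact two-sided permutation test cannot give p below 0.1, so no ratio could pass 0.05. The groups did not overlap in 19 of the 23 ratios, each with p = 0.1 (exact permutation test, 0.12 after Benjamini-Hochberg adjustment). *MCL1*, *BCL2* and *BCL2L1* themselves had log2 fold changes of −2.80, −1.73 and −0.91, and 3.36%, 10.7% and 24.1% of tested genes fell further. Most tested genes were thus higher relative to each of them. The share of all genes with ratios that do not overlap was not computed. The ratios were not adjusted for transcript GC content.

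Over *MCL1*, *BCL2L11* and *BMF* kept overlapping groups. The log2 ratio of *BCL2L11* to *MCL1* was −2.94, −2.84 and −2.77 with DMSO and −3.46, −3.53 and −2.56 with CDKI-73, a mean difference of −0.34 (p = 0.4, exact permutation test). That of *BMF* to *MCL1* differed by −0.28 (p = 0.5, exact permutation test), and by 0.18 with a pseudocount of 1, so that its direction is not set. CDKI-73 replicate 3, with the lowest *MCL1*, was the sample above the vehicle range in both. Without that library the differences were −0.65 for *BCL2L11* and −0.55 for *BMF*. *PMAIP1* over *MCL1* was higher in each treated sample than in each vehicle sample by a mean of 1.11, a 2.16-fold higher ratio, although both mRNAs fell. *BIK* over *MCL1* was higher by 0.71, and by 0.31 without CDKI-73 replicate 3. *BAD*, *BBC3* and *BID* over *MCL1* were higher by 3.21, 3.13 and 2.72, which is 9.26-fold, 8.76-fold and 6.57-fold. The log2 fold change of *MCL1* was −2.80 and the median of all tested genes −0.18, so a large rise over *MCL1* is not particular to these genes.

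Over *BCL2L1* the groups were apart for all 7 genes, 4 ratios being lower and 3 higher. *BCL2L11* over *BCL2L1* was −1.10, −1.001 and −1.01 with DMSO and −3.28, −3.25 and −3.26 with CDKI-73 on the log2 scale, a difference of −2.22. *BMF*, *BIK* and *PMAIP1* over *BCL2L1* differed by −2.17, −1.17 and −0.78, and *BAD*, *BBC3* and *BID* by 1.32, 1.24 and 0.83. Over *BCL2* the ratios of *BCL2L11* and *BMF* were lower by 1.41 and 1.35 on the log2 scale, those of *BIK* and *PMAIP1* overlapped between groups, and those of *BAD*, *BBC3* and *BID* were higher by 2.14, 2.06 and 1.65. Between the effectors, *BAX* over *BAK1* was 0.97, 0.99 and 1.03 with DMSO and 2.55, 2.23 and 2.52 with CDKI-73 on the log2 scale. The ratio of *BAX* to *BAK1* was 2.71-fold higher and that of *BAX* to *BOK* 1.52-fold higher with CDKI-73.

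**Figure D4:**
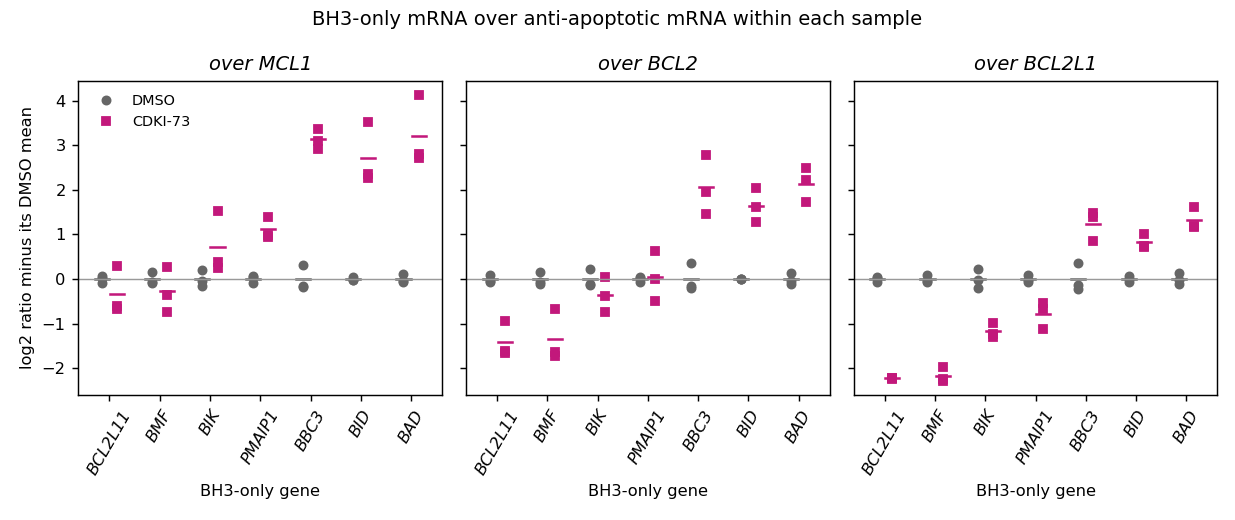
Log2 ratio of each BH3-only mRNA to *MCL1*, *BCL2* and *BCL2L1* in each sample, minus the DMSO mean of that ratio, with DMSO in grey circles, CDKI-73 in magenta squares and group means as bars. *BCL2L11* and *BMF* overlap between groups over *MCL1* and lie below 0 over *BCL2L1* in every treated sample.

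Features of the transcripts that played no part in choosing the genes were read from canonical GENCODE v44 transcripts, which 86.7% of tested genes had. All 10 members have few exons, from 2 in *PMAIP1* to 6 in *BID*, *BAX* and *BAK1*, where the median of tested genes is 9. Tested genes with 1 exon had a median log2 fold change of −1.12, those with 2 to 3 exons −0.75, those with 4 to 7 exons −0.18 and those with 8 or more −0.12. The pentamer ATTTA, the core of AU-rich elements that shorten the life of many mRNAs, was counted in the 3′ UTR. *BCL2L11* held 8, *BMF* and *PMAIP1* 5 each, *BID* 2 and *BIK* 1, and *BAK1*, *BOK*, *BAX*, *BBC3* and *BAD* held 0. The 3′ UTR is 4213 bases long in *BCL2L11* and 3897 in *BMF*, against 162 in *BAX* and 379 in *BAD*. The pentamer was thus in 5 of the 10 members, and in 73.7% of the 11095 tested genes with a 3′ UTR. Those 5 were the 4 BH3-only genes that fell and *BID*, which did not pass the test, and *BAK1* fell without it. Among all tested genes the median log2 fold change was 0.13 for 2923 genes with no ATTTA, −0.14 with 1 to 2, −0.38 with 3 to 5, −0.45 with 6 to 11 and −0.43 with 12 or more. UTR length and GC content were not held constant in these medians. The first ATTTA after the stop codon is shown in capitals with 8 bases on each side for the 4 BH3-only genes that fell, read from the GENCODE transcripts, at chr2:111164886-111164906, chr15:40089689-40089709, chr18:59903965-59903985 and chr22:43129407-43129427 in the order given.
BCL2L11: ttgtaaatATTTAcgtacctt
BMF: ccgggattATTTAcagcagcc
PMAIP1: ataattttATTTAttttgcct
BIK: ctttttatATTTAaaccccga

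**Figure D5:**
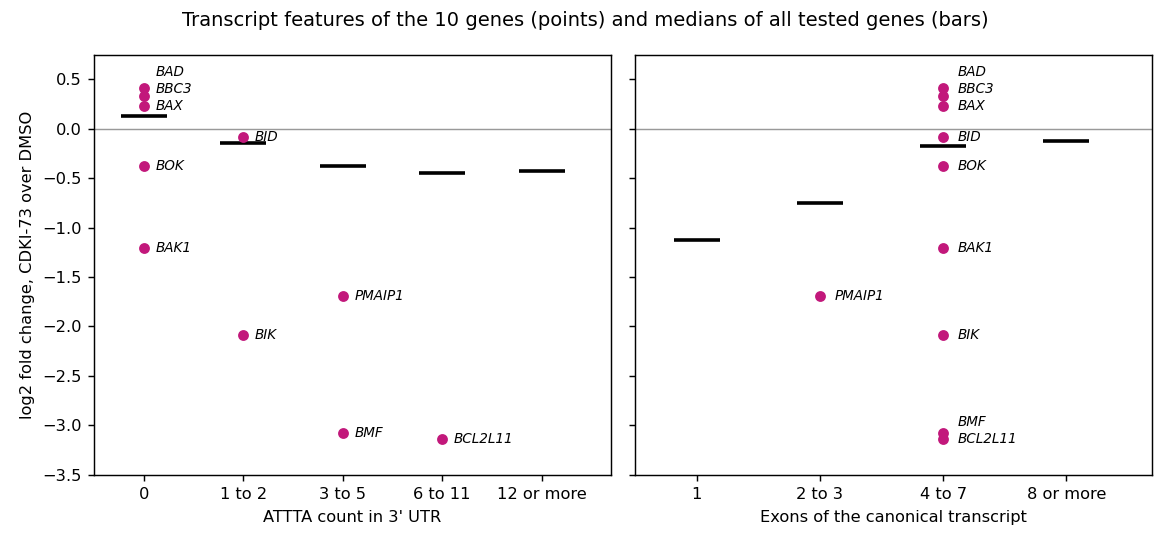
Log2 fold change, CDKI-73 over DMSO, of the 10 genes (magenta points) by the number of ATTTA pentamers in the 3′ UTR and by the number of exons, with the median of all tested genes in each bin as a black bar. The 5 genes without ATTTA range from −1.21 (*BAK1*) to 0.41 (*BAD*), and *BCL2L11*, with 8, is the lowest at −3.14.

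Profiles were matched by the Euclidean distance between the 6 centred log2 values of a member and of each of 10203 other genes with a mean of at least 5 CPM. The nearest to *BCL2L11* were *CCNF* (distance 0.11), *FBXO34* and *CMTR2*, with log2 fold changes of −3.21, −3.11 and −3.19. *BMF* was nearest to *RNF219*, *ZSCAN16* and *MESDC1*, *PMAIP1* to *PPTC7*, *ZNF675* and *ZNF3*, and *BAK1* to *UNC50*, *KIAA0513* and *ZBTB22*. *BAD* was nearest to *CHCHD2*, *ATP5J2* and *ATP5H*, all within a distance of 0.050 and with log2 fold changes of 0.39 to 0.41. *BIK* was nearest to *TPRN*, *EED* and *KIAA1804*, *BID* to *FAM200B*, *TMEM64* and *CRYZL1*, *BAX* to *PCK2*, *DALRD3* and *RNASE4*, and *BOK* to *ESRRA*, *GAS5* and *NDN*. The nearest profiles to *BBC3* lay further off, at distances of 0.49 to 0.50, with *SAMD12* and *METAP1D* among them.

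Other genes of the pathway were taken from lists written from general knowledge. Of 13 other genes named for the BCL-2 family or its interactions 9 were tested, with 5 called lower and 3 called higher, none by 2-fold (7 lower and 0 higher, unadjusted also 0, by limma with the reference genes). The largest changes were those of *MOAP1*, which binds BAX (−0.59), *BNIP2* (−0.57), *BNIP1* (−0.49) and the mitophagy receptor gene *BNIP3L* (0.31). Their median of −0.19 turned positive under the scalings to the median of gene ratios, the trimmed mean of M values and the upper quartile (0.0070, 0.037 and 0.081). *HRK*, a further BH3-only gene, named here after its values were seen, was at 0.02 to 0.11 CPM and was not tested.

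Of 12 genes acting after the membrane is breached, 7 were lower and 2 higher (11 and 0, unadjusted also 0 higher, by limma with the reference genes). *XIAP*, *APAF1*, which builds the apoptosome, and *DIABLO*, which antagonises XIAP, had log2 fold changes of −0.79, −0.77 and −0.36. The median of the list was −0.25, and 0.028 after scaling to the upper quartile.

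Of 32 genes whose products bind or modify these proteins, 12 were lower and 14 higher (with the reference genes limma called 23 lower and 0 higher, and 1 was higher at an unadjusted p under 0.05). The kinase genes *PIM1* and *PIM2*, whose products phosphorylate BAD, had the largest falls, −3.35 and −2.17. *GSK3B* and *BTRC*, a ubiquitin ligase subunit gene, had −0.92 and −0.84.

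Of 26 genes for transcription factors known to act on BH3-only or effector genes 25 were tested, and 19 were lower, 11 of them by at least 2-fold, while 5 were higher. *CEBPB*, *DDIT3* (CHOP), *KLF4* and *MYB* had the largest falls, with log2 fold changes of −3.54, −3.40, −3.12 and −3.08. Of the 3 forkhead factor genes in the list, whose family is known to act on *BCL2L11* and which are named here after their values were seen, *FOXO3* and *FOXO1* went from 113.2 ± 2.68 to 24.0 ± 2.31 CPM and from 10.0 ± 0.76 to 1.27 ± 0.14 CPM (SD, n = 3). *FOXO4* was higher, at 9.26 ± 0.24 CPM with DMSO and 11.2 ± 0.31 CPM with CDKI-73 (SD, n = 3, log2 fold change 0.27, adjusted p = 0.0053 from limma). Whether these factors act on *BCL2L11* in these cells was not tested. The median of the list was −0.80, and between −1.20 and −0.51 under the other scalings.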

How the data were processed

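RNA came from LNCaP cells after 4 h in DMSO or in CDKI-73 (250 nM), 3 biological replicates each. The authors mapped reads to hg38 with STAR (--quantMode GeneCounts) and deposited CPM per gene symbol, rounded to 2 decimals. All columns have the same total within rounding, so no TMM factor is in them. The submitters' processing notes name FastQC, STAR, edgeR 3.3 and R 3.2.3. The gene annotation is not given in the sources used here. Columns were matched to samples by label.

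CPM are not counts, so log2(CPM + 0.1) was tested in R 4.3.3 by limma 3.58.1 (lmFit, then eBayes, trend set to true) over the 13373 genes with a mean of at least 0.5 CPM, with Benjamini-Hochberg adjustment. Whole reads were not taken as recovered, and depth was inferred from the step between values. The code was tested on simulated data. Ratios were compared by exact permutation. Features and lengths came from GENCODE v44, promoters and gene positions from RefSeq (GRCh38.p14), and tables and plots were made with pandas 2.3.3 and matplotlib 3.10.9 in Python 3.11.15. The trimmed mean of M values was computed without weights, and the upper quartile over tested genes.

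The members and gene lists were chosen with earlier results of these data known. Named genes were all members, the anti-apoptotic genes, up to 4 genes of each list past the adjusted p by size of change, cell type markers and the 3 nearest profiles of a member, besides any marked in the text as picked from their values. Some genes of the lists are not reported here by name.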

Additional observations from a re-analysis of the deposited data

How the results depend on the processing

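Settings tried were pseudocounts of 0.01 and 1, no filter and a mean of at least 2 CPM, 4 scalings, limma without trend or robust, the replicate block, each sample left out, and, chosen after the data were seen, an adjustment for transcript GC content and the omission of CDKI-73 replicate 3 with DMSO replicate 1. Deviations of samples with the same replicate number had correlations of −0.30, 0.11 and −0.23. These cannot exclude a pairing, since the deviations also varied with transcript GC content. The replicate block left 6 members lower, 2 higher and 5 lower by at least 2-fold, with 6159 genes lower and 2776 higher among all tested. Among all tested genes 6441 were lower and 3242 higher. The number higher was 5133 after scaling to the median of gene ratios, 5426 by the trimmed mean of M values and 5775 by the upper quartile, and the reference genes gave 9919 lower and 387 higher. Members higher by limma were 0 with the reference genes and 0 after the GC adjustment (0 and 0 at an unadjusted p under 0.05), and 1 to 3 with a sample left out. The log2 fold change of *BID* was reversed by the median of gene ratios (0.12), the trimmed mean of M values (0.15) and the upper quartile (0.19), and the reference genes reversed *BBC3* (−0.067) and *BAX* (−0.18). Scaling shifts all genes by construction, and other causes were not tested. With 5 to 7 members lower when a sample was left out, *BOK*, *BID* and *BAX* were the members whose call rested on single libraries, besides *BBC3*. With a pseudocount of 1, 5 of the 23 ratios moved by more than the spread between replicates without a turn of direction, and 2 with overlapping groups changed sign, *BMF* over *MCL1* (−0.28 to 0.18) and *PMAIP1* over *BCL2* (0.044 to −0.28, and −0.25 without CDKI-73 replicate 1). Depth limited little here, as the lowest member value rested on about 72 reads.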
